A study of Mus musculus with 2 samples.

Results

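Genes of the cell junctions were examined in small hepatocytes (SHs) and mature hepatocytes (MHs) of adult mouse liver. The genes were taken by symbol and comprised the claudins (Cldn and a number), the connexins (Gja, Gjb or Gjc and a number) and the zonula occludens proteins (Tjp and a digit), together with Ocln, F11r, Cgn, Cdh1, Cdh2, Ctnna1, Ctnnd1, Jup, Dsp, Dsg2, Dsc2 and Pkp2. This rule found 56 of the 43280 symbols in the count tables, namely 25 claudins, 6 other tight junction genes, 16 connexins, 4 adherens junction genes and 5 desmosome genes.

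Poly(A) RNA was sequenced from 1 library of MHs and 1 library of SHs, both taken from the livers of the same healthy adult C57BL6 mice, for which no treatment is given. The labels give an age of 20 weeks, and the methods give a younger range for the animals of the study. MHs were the cells pelleted at low speed after collagenase perfusion, freed of dead cells on Percoll and not sorted, so that other liver cells could be among them. SHs, described by the labels as intrinsic progenitors of hepatocytes, came from the supernatant and were sorted as CD31-CD45-EpCAM-ICAM-1+ cells. Neither condition was replicated. Differences between the libraries therefore have no replicate check in these data and no p-value, and every interval given covers counting error only. The paper also measured some of the genes, Cdh1 and Cldn2 among them, by quantitative PCR in repeated isolations, which are not used here.

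Counted reads numbered 16979136 in MHs and 42356444 in SHs, and levels are given as reads per 1000000 counted reads (RPM). A level of 3 reads was 0.177 RPM in MHs and 0.0708 RPM in SHs. All 8 hepatocyte markers examined (Alb, Apoa1, Ttr, Hnf4a, Cps1, Tdo2, Serpina1a and Fah) were present in both libraries and summed to 76145 RPM in MHs and 80533 RPM in SHs. Ratios are log2 of SHs over MHs with 0.5 reads added to each count, followed by the 95% Clopper-Pearson interval. A gene was called when it differed by at least 2-fold and its interval lay wholly on that side of 0, provided that it had 10 reads or more in the pair of libraries.

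Hepatocytes are joined by several kinds of junction beside the bile canaliculus, the narrow channel between neighbouring hepatocytes into which bile is secreted. Tight junctions seal the canaliculus. Their claudins and occludin span the membrane, and the zonula occludens proteins and cingulin hold them to actin. Gap junctions are channels of connexins that let ions and small metabolites pass between cells, whereas adherens junctions and desmosomes bind cells mechanically through cadherins. In mouse liver, CLDN2 is a protein of hepatocytes near the central vein (ZONE3), and E-cadherin, the product of Cdh1, is one of hepatocytes nearer the portal vein.

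Most junction genes of hepatocytes had similar levels in SHs and MHs, and Cldn2 was the exception. Of the 56 genes, 15 had no read in either library, 14 had between 1 and 9 reads, and 27 had at least 10. Of these 27, 3 were called lower in SHs, against 4.46% of the 15521 genes with at least 10 reads, and they were Cldn2, Cldn5 and Gja4. The number called higher was 0, against 2.00% of all genes. Cldn5 and Gja4 had fewer than 10 reads in SHs and reached the read minimum through MHs, so that they could enter only by being lower in SHs.

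Smaller differences were seen in more of the genes. The interval lay under 0 for 5 of the 27 genes, against 15.5% of all genes, and above 0 for 11, against 16.8%. The 23 junction genes with at least 50 reads each had over 200 reads, and their intervals were therefore narrow. Among them the interval lay above 0 for 11 and under 0 for 3, against 23.2% and 16.9% of the 9608 genes with at least 200 reads. The median ratio was 0.12 over these 23 genes, -0.01 over the 27 genes and 0.02 over all 15521 genes. Except for Cldn2, each of the 23 genes differed by less than 2-fold between the libraries.

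**Figure D1:**
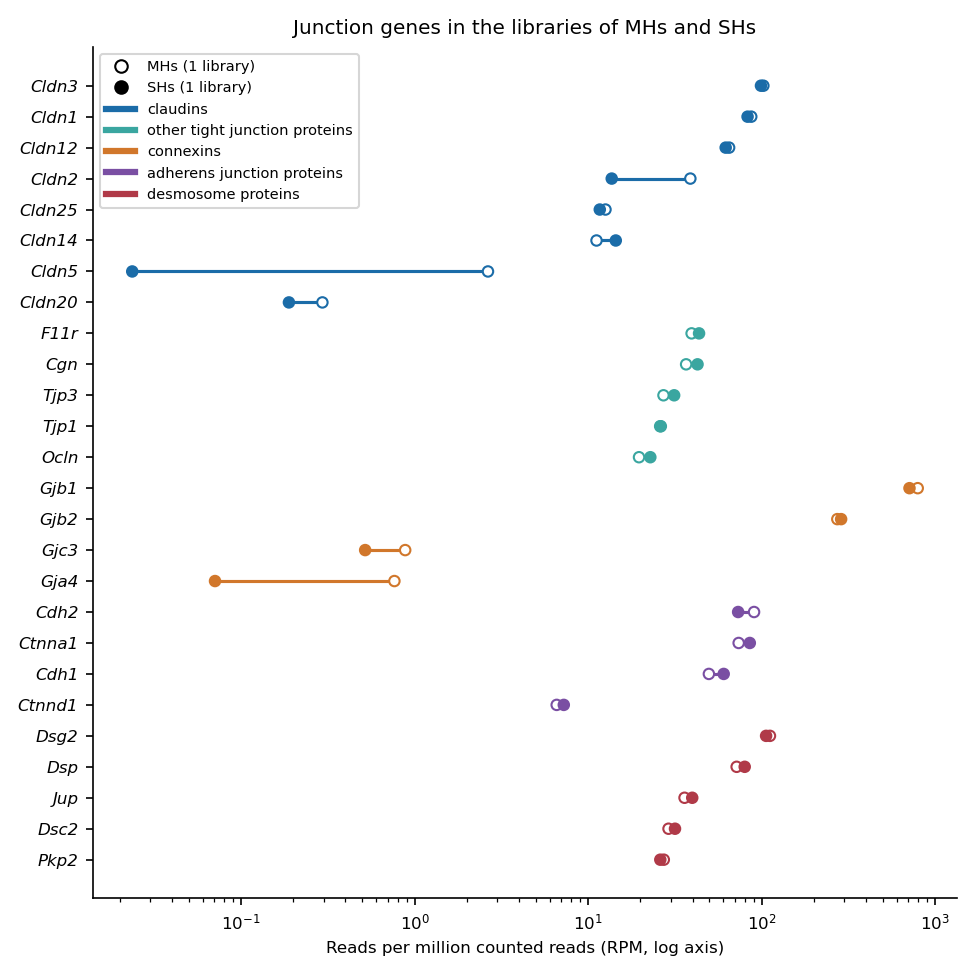
Levels of the named junction genes with at least 10 reads, in RPM on a log axis, in the single library of MHs (open circles) and the single library of SHs (filled circles), coloured by kind of junction and joined by a line for each gene. The circles nearly coincide for most genes, while those of Cldn2 (38.9 and 13.7 RPM), Cldn5 (2.65 and 0.0236 RPM) and Gja4 (0.766 and 0.0708 RPM) lie apart.

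Claudins differed in whether they were present at all. Of the 25 claudins, 11 had no read in either library, among them Cldn4, Cldn6, Cldn8 and Cldn9, which allows levels of up to 0.177 RPM in MHs and 0.0708 RPM in SHs. Cldn4 and Cldn7 are known from bile duct epithelium, and Cldn7 had 1 read in MHs and 2 in SHs. The other claudins below 10 reads were Cldn18 with 0 and 4 reads, Cldn26 with 0 and 2, Cldn15 with 1 and 2, Cldn10 with 0 and 1, and Cldn23 with 1 and 1. None of these low counts separated the libraries.

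Cldn2 (chrX:139800828-139811386, plus strand of mm10), which encodes a claudin that forms paracellular channels for cations and water, was lower in SHs. It had 660 reads in MHs against 580 in SHs, although SHs were sequenced more deeply. This gave 38.9 RPM in MHs and 13.7 RPM in SHs, a 2.84-fold lower level (interval 2.54 to 3.18). The ratio was -1.51 (-1.67 to -1.34), and of the 9608 genes with at least 200 reads only 37 had a lower one. In bulk RNA, fewer cells with Cldn2 and less Cldn2 RNA per cell cannot be told apart. Markers of ZONE3 moved with it: all 11 of a list with Glul, Oat and Cyp2e1 had intervals under 0, against 15.5% of all genes. Ratios ran from -4.23 to -0.58, although Rhbg (10 and 4 reads) reached the read minimum through MHs. The 11 markers summed to 3317 RPM in MHs and 1012 RPM in SHs, and none was at 0. Their part in the Cldn2 result was not tested, and the list holds genes the study had picked out.

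Cldn3, Cldn1 and Cldn12 had similar levels in both libraries. Cldn3, a barrier-forming claudin, had 1739 reads in MHs against 4203 in SHs, or 102.4 and 99.2 RPM, a ratio of -0.05 (-0.13 to 0.04). Cldn1, also barrier-forming, had 87.2 RPM in MHs and 83.1 RPM in SHs, a ratio of -0.07 (-0.16 to 0.02). Cldn12 had 65.0 and 62.1 RPM, a ratio of -0.07 (-0.17 to 0.04). The intervals of these 3 genes included 0, and none of them reached below -0.17.

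Against each of them Cldn2 was lower, by an amount that does not depend on how the libraries are scaled. The difference between the log2 ratio of Cldn2 and that of Cldn3 was -1.46 (95% interval -1.64 to -1.28), that to Cldn1 was -1.43 (-1.62 to -1.25) and that to Cldn12 was -1.44 (-1.63 to -1.25). These 3 differences share the counts of Cldn2, and the genes set against it had similar ratios, so they are not separate results. They are among 8 such pairs computed.

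Cldn14, a claudin known from the inner ear and kidney, had the highest ratio of the claudins with at least 10 reads. It had 190 reads in MHs against 612 in SHs, or 11.2 and 14.4 RPM, a ratio of 0.37 (0.13 to 0.61). Its log2 ratio exceeded that of Cldn3 by 0.41 (0.17 to 0.66). The symbol Cldn25 had 12.6 RPM in MHs and 11.7 RPM in SHs, a ratio of -0.11 (-0.34 to 0.13). RefSeq lists this symbol as an older name of both Cldnd1 and Cldn25-ps, so which of them was counted is uncertain. Cldn20 had 5 reads in MHs against 8 in SHs, too few to show a difference (ratio -0.69, interval -2.43 to 1.32).

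Levels were compared between genes only per exon length, as RPM per kilobase of exon (RPKM). Cldn3 led the 23 claudins with an annotated length in both libraries, with 81.4 RPKM in MHs and 78.8 RPKM in SHs, and took 60.7% and 64.6% of their summed RPKM. Cldn1 followed with 18.0 and 17.2 RPKM, and Cldn12 with 15.4 and 14.7 RPKM. Cldn2 was the claudin with rank 4 in MHs, at 11.7 RPKM and 8.72% of the sum, and rank 5 in SHs, at 4.12 RPKM and 3.38%. Cldn14, at 5.26 RPKM in MHs and 6.79 RPKM in SHs, stood below Cldn2 in MHs and above it in SHs.

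**Figure D2:**
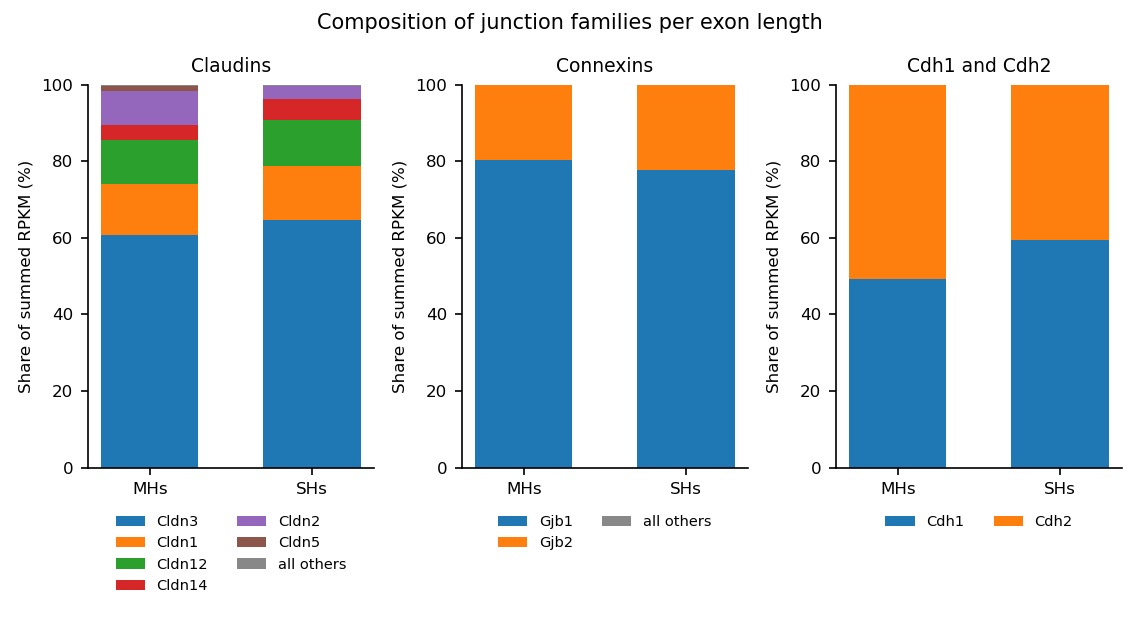
Share in percent of the summed RPKM taken by each gene in MHs and SHs (1 library each), for the 23 claudins with a length, the 16 connexins, and Cdh1 with Cdh2. Cldn2 shrinks from 8.72% to 3.38% of the claudins, Gjb1 stays near 80% of the connexins (80.3% and 77.7%), and Cdh1 grows from 49.2% to 59.3% of the cadherin pair.

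The 250 bases before the RefSeq start of 3 claudin genes are shown because these genes had different outcomes: Cldn2, lower in SHs, Cldn3, the leading claudin with a ratio near 0, and Cldn5, with a single read in SHs. They lie at chrX:139800558-139800807, chr5:134985964-134986213 and chr16:18776597-18776846 of GRCm38.p6, all on the plus strand. Capitals mark the TATA box letters in Cldn2 and the GC box letters in Cldn3 and Cldn5.
Cldn2: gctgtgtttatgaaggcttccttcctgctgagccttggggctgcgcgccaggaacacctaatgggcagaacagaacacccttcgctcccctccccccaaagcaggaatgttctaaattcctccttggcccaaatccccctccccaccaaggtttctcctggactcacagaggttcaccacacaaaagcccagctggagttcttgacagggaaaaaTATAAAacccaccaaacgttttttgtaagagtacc
Cldn3: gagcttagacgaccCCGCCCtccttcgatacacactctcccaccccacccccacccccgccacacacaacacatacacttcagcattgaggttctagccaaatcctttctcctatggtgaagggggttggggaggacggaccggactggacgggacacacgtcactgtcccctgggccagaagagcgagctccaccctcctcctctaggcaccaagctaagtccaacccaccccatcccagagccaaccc
Cldn5: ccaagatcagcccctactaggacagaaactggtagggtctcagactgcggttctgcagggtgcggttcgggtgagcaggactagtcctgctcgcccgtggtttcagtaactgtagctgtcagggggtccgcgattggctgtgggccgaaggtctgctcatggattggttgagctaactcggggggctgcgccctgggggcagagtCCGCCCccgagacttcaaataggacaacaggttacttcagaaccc

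The windows were searched on both strands for TATAAA (the TATA box), GGGCGG (the GC box) and CTTTGA (a core of TCF/LEF sites), motifs chosen after the ratios were known. Cldn2 held TATAAA at -35 to -30 from the start and neither of the others, and its window had a GC content of 52%. Cldn3 held 1 GC box at -236 to -231 and Cldn5 held 1 at -45 to -40, both read on the opposite strand, with GC contents of 60.8% and 59.6%. No match overlapped another. Over all 32851 promoter windows of the same length, 12.4% held TATAAA, 32.7% held GGGCGG and 13.8% held CTTTGA. Of the 38 junction genes with a promoter in that table, 6 held TATAAA, 20 held GGGCGG and 6 held CTTTGA. A match says only that the letters are there.

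Cldn5 (chr16:18776847-18778262), the claudin of vascular endothelium, was nearly absent from SHs. It had 45 reads in MHs and 1 read in SHs, or 2.65 and 0.0236 RPM. The ratio was -6.24, and with a single read in SHs its interval was wide, from -12.15 to -4.26. Endothelial markers moved with it: all 12 examined were called lower in SHs, against 4.46% of all genes, with ratios from -6.82 to -1.62. They summed to 89.0 RPM in MHs and 6.04 RPM in SHs, and Lyve1 was at 0 in SHs. Other cells also left fewer reads in SHs. The 11 macrophage and immune markers summed to 15.5 RPM in MHs and 0.968 RPM in SHs, and 7 of the 8 with at least 10 reads were called lower. The 10 stellate markers summed to 21.4 and 2.38 RPM, and the 9 with at least 10 reads were called lower, whereas Col1a1 had 1 read in MHs and 6 in SHs. Many markers of these 3 lists had fewer than 10 reads in SHs and reached the minimum through MHs, so that they could enter these counts only by being lower in SHs. The share of all genes beside each of these counts is the same 4.46%. SHs were sorted against CD31, the product of Pecam1, and CD45, that of Ptprc, whereas MHs were not sorted. Both genes are in these lists, so that low values of them in SHs were selected for. The part of endothelial and other cells in the Cldn5 result was not tested.

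The remaining tight junction genes lay slightly higher in SHs. For 5 of the 6 the interval was above 0, against 23.2% of genes with at least 200 reads. With the reads of SHs thinned to the depth of MHs this held for 3 of the 6, and the intervals of Cgn (-0.01 to 0.31) and F11r (-0.05 to 0.26) included 0. The thinning was a single random draw, and no share over all genes was computed at that depth. Summed over the 6 genes they had 167.6 RPM in MHs and 190.6 RPM in SHs, a ratio of 0.19 (0.12 to 0.25).

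Of the zonula occludens scaffolds, Tjp1, by which tight junctions are usually stained, had 446 reads in MHs against 1103 in SHs. These were 26.3 and 26.0 RPM, a ratio of -0.01 (-0.17 to 0.15). Tjp3 had 462 and 1328 reads, or 27.2 and 31.4 RPM, a ratio of 0.20 (0.05 to 0.36). Its log2 ratio exceeded that of Tjp1 by 0.22, with an interval that reached 0 (-0.00 to 0.44). Tjp3 shares 40 exonic bases with Apba3 on the opposite strand, and whether the counting used strand is not given in the sources used here.

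The membrane proteins and the linker lay slightly higher in SHs. Ocln, which encodes occludin, had 334 reads in MHs against 968 in SHs, or 19.7 and 22.9 RPM, a ratio of 0.21 (0.04 to 0.40). F11r, which encodes the junctional adhesion molecule JAM-A, had 39.5 and 43.6 RPM, a ratio of 0.14 (0.01 to 0.27). Cgn, which encodes cingulin, had 36.8 and 42.8 RPM, a ratio of 0.22 (0.09 to 0.35). Per length F11r had the highest level of the 6, with 14.8 RPKM in MHs and 16.4 RPKM in SHs. Tjp3 followed with 7.33 and 8.44 RPKM, and Tjp1 had 3.36 and 3.33 RPKM.

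**Figure D3:**
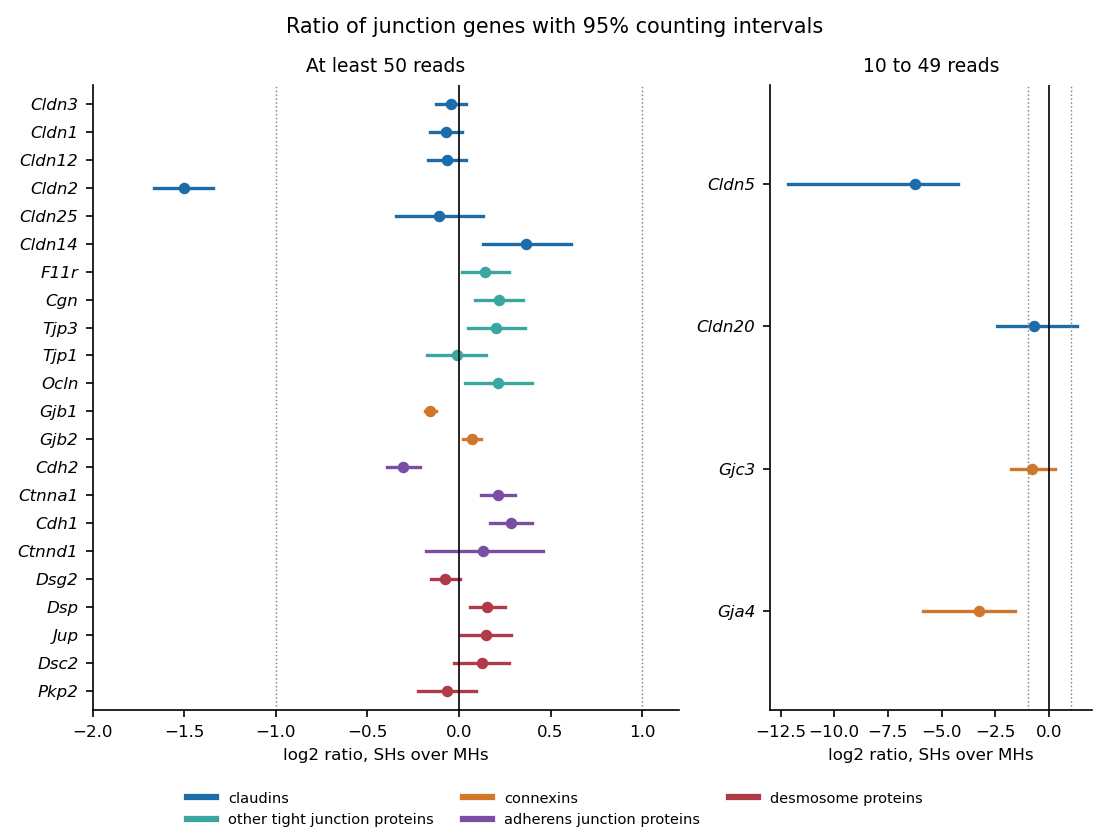
log2 ratio of SHs over MHs (points) with the 95% interval of counting error (bars) for the named junction genes with at least 50 reads (left) and those with 10 to 49 reads (right, on a wider axis); dotted lines mark a 2-fold difference and colours the kind of junction. On the left only Cldn2, at -1.51, lies beyond 2-fold, and the bars of F11r, Cgn, Tjp3 and Ocln lie above 0.

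Connexins were dominated by Gjb1 and Gjb2, and both changed little. Gjb1 (chrX:101376378-101385629), which encodes the main connexin of hepatocytes, had 13488 reads in MHs against 30163 in SHs. These were 794.4 and 712.1 RPM, a fall by 0.16 on the log2 scale (interval -0.19 to -0.13), or 10.4% less. Gjb2 (chr14:57098600-57104702), whose connexin is found mainly in periportal hepatocytes, had 4640 and 12176 reads, or 273.3 and 287.5 RPM, a ratio of 0.07 (0.02 to 0.12). The intervals of the pair did not meet, and the log2 ratio of Gjb1 lay below that of Gjb2 by 0.23 (difference -0.23, interval -0.29 to -0.17). Gjb1 stood 4.10 times above Gjb2 per length in MHs and 3.49 times above it in SHs.

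The other connexins were at or near the limit of detection. Gja4 (chr4:127311421-127314039), a connexin of arterial endothelium, had 13 reads in MHs against 3 in SHs, a ratio of -3.27 (-5.89 to -1.57). Gja1, the widespread connexin of vascular and connective tissue cells, had 4 reads in MHs against 0 in SHs, with an upper bound of the interval at -0.72. Gja5, another vascular connexin, had 3 reads in MHs against 1 in SHs, with an interval that included 0 (-8.62 to 0.73), and Gjc1 had none in either. Of these genes Gja4 alone reached 10 reads, and it did so through MHs.

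Gjc3 had 15 reads in MHs against 22 in SHs, and its interval included 0 (ratio -0.78, -1.78 to 0.29). Gja6 had 2 and 6 reads, and Gja10 had 4 and 1. The remaining connexins had at most 1 read in a library. Together the 14 connexins other than Gjb1 and Gjb2 took less than a percent of the connexin RPKM in either library.

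Adherens junction genes held an opposite pair. Cdh1 (chr8:106603351-106670246), which encodes E-cadherin, had 844 reads in MHs against 2563 in SHs. These were 49.7 and 60.5 RPM, a ratio of 0.28 (0.17 to 0.40), or 21.7% more. Cdh2 (chr18:16588877-16809246), which encodes N-cadherin, the other classical cadherin of hepatocytes, had 1537 and 3104 reads. These were 90.5 and 73.3 RPM, a ratio of -0.31 (-0.39 to -0.22), so that Cdh1 lay higher in SHs and Cdh2 lower.

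The difference between the log2 ratios of Cdh1 and Cdh2 was 0.59 (0.45 to 0.73). Per length the pair was nearly even in MHs, at 10.9 RPKM for Cdh1 and 11.2 RPKM for Cdh2, whereas in SHs Cdh1 led with 13.2 against 9.09 RPKM. Markers of ZONE1 also lay higher in SHs: all 10 of a list with Cps1, Ass1 and Gls2 had intervals above 0. Of genes with at least 200 reads, 23.2% did. Ratios ran from 0.02 to 1.29, and the lowest were those of Cps1 (0.02) and Cyp2f2 (0.06). Their intervals were narrow, with 370519 and 146403 reads, and Cps1 is also among the hepatocyte markers. The 10 markers summed to 16426 RPM in MHs and 19542 RPM in SHs, none was at 0, and their part in the Cdh1 result was not tested.

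Catenins link cadherins to actin or hold them at the membrane. Ctnna1 and Ctnnd1 both had a ratio above 0, whereas that of Ctnnb1, a partner gene, was -0.04 (-0.10 to 0.02). Ctnna1, which encodes α-catenin, had 73.8 RPM in MHs and 85.6 RPM in SHs, a ratio of 0.21 (0.12 to 0.31). Ctnnd1, whose catenin binds the cadherin tail near the membrane, had 6.60 and 7.25 RPM, a ratio of 0.13 (-0.18 to 0.46). Ctnnd1 shares 4482 exonic bases with the annotated gene Gm28635 on the same strand, which had 0 reads in both libraries, so its level depends on how such reads were counted.

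Desmosome genes were nearly level. Summed over the 5 genes they had 276.0 RPM in MHs and 283.8 RPM in SHs, a ratio of 0.04 (-0.01 to 0.09). Dsp, which encodes desmoplakin, the link to keratin filaments, had 71.9 and 80.0 RPM, a ratio of 0.15 (0.06 to 0.25). Jup, which encodes plakoglobin, had 36.0 and 39.9 RPM, a ratio of 0.15 (0.01 to 0.28). These were the only 2 of the 5 with an interval above 0, against 23.2% of genes with at least 200 reads. The interval of Jup included 0 with SHs thinned (-0.01 to 0.31).

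Among the desmosomal cadherins, Dsg2 had 111.8 RPM in MHs and 106.2 RPM in SHs, a ratio of -0.07 (-0.15 to 0.00), and Dsc2 had 29.1 and 31.7 RPM, a ratio of 0.12 (-0.03 to 0.28). Pkp2, which encodes a plakophilin of the desmosome plaque, had 27.3 and 26.1 RPM, a ratio of -0.07 (-0.22 to 0.09). Dsg2 had the highest level per length in both libraries, at 13.5 RPKM in MHs and 12.8 RPKM in SHs.

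**Figure D4:**
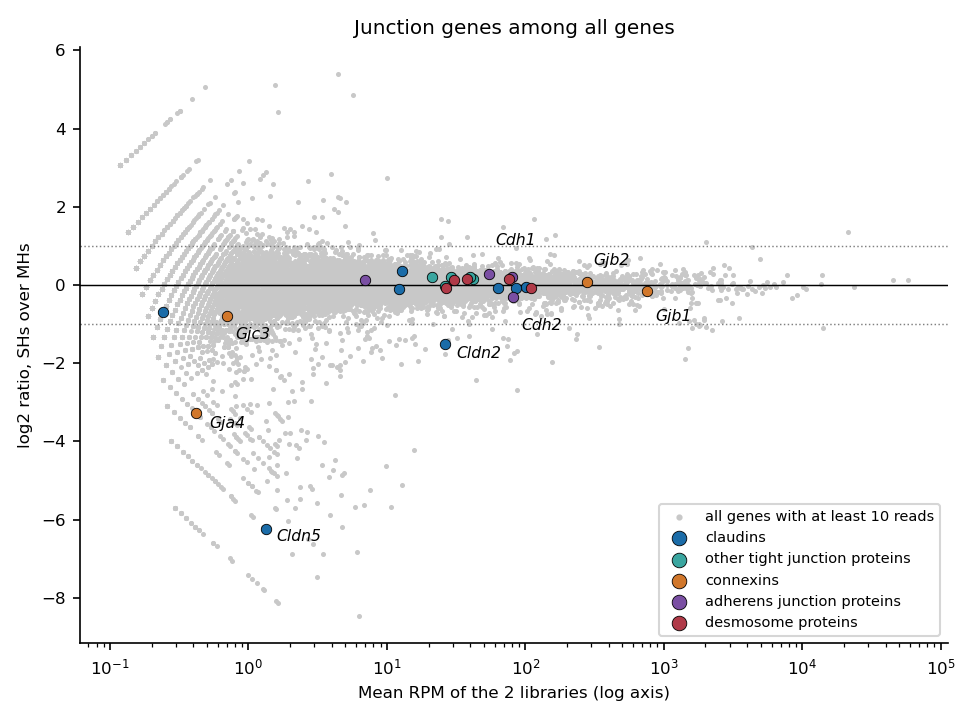
log2 ratio of SHs over MHs against the mean RPM of the 2 libraries (log axis) for all 15521 genes with at least 10 reads (grey) and the named junction genes among them (coloured by kind), with dotted lines at a 2-fold difference. Cldn2 lies below the band of genes of similar level, Cldn5 and Gja4 lie among the low-level genes far under 0, and the other junction genes lie in the band.

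Genes that work with these proteins were read from a list of junction partners, of which 76 were in the tables and 52 had at least 10 reads. Of the 52, 7 were called lower in SHs and 1 higher, against 4.46% and 2.00% of all genes. Of these 7, Cdh13, Esam, Amotl1 and Jam2 had fewer than 10 reads in SHs and reached the minimum through MHs. Arhgef2, with 9 reads in MHs and 6 in SHs, reached it only with both libraries. The interval lay under 0 for 11 of the 52 and above 0 for 19, against 15.5% and 16.8% of all genes. Deeper genes have narrower intervals, and 45 of the 52 had at least 50 reads. Among genes with at least 200 reads the shares were 16.9% and 23.2%. The median ratio of the 52 partners was 0.10. The level of Ctnnb1, the gene of β-catenin, was 203.3 RPM in MHs against 197.7 RPM in SHs, a ratio of -0.04 (-0.10 to 0.02). Marveld2, which encodes tricellulin of the corners where cells meet, had 8.01 and 10.1 RPM, a ratio of 0.32 (0.05 to 0.62).

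Of the partners with at least 100 reads, the lowest ratio was that of Cdh5, the cadherin of endothelium, with 112 reads in MHs against 11 in SHs (-4.61, -5.71 to -3.77). It is also one of the 12 endothelial markers. Next were Pard6a and Prkcz, which encode partners in a polarity complex, at -0.59 (-1.08 to -0.07) and -0.30 (-0.55 to -0.03). The highest was Dsg1c, a desmosomal cadherin, with 35 reads in MHs against 186 in SHs (1.07, 0.56 to 1.66). Ppl, which encodes periplakin, had 10.1 and 16.2 RPM, a ratio of 0.68 (0.44 to 0.93), and Pard6b, another polarity gene, had 4.83 and 7.48 RPM, a ratio of 0.63 (0.28 to 1.00). All 8 desmosome partners with at least 10 reads had a ratio above 0, against 8064 of all 15521 such genes. The interval was above 0 for 4 of the 8, among them the keratins Krt8 at 0.15 and Krt18 at 0.16. It was above 0 for 16.8% of all genes and for 23.2% of those with at least 200 reads.

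Markers of bile duct cells, which were sorted out of the SHs by EpCAM, were low in both libraries. Epcam had 6 reads in MHs against 1 in SHs, Krt19 and Krt7 had 1 read in each, and Tspan8 had none. The 8 markers summed to 21.4 RPM in MHs and 24.4 RPM in SHs. Of those with at least 10 reads, Spp1 had 8.01 and 6.40 RPM and Sox9 had 5.42 and 7.67 RPM.

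**Figure D5:**
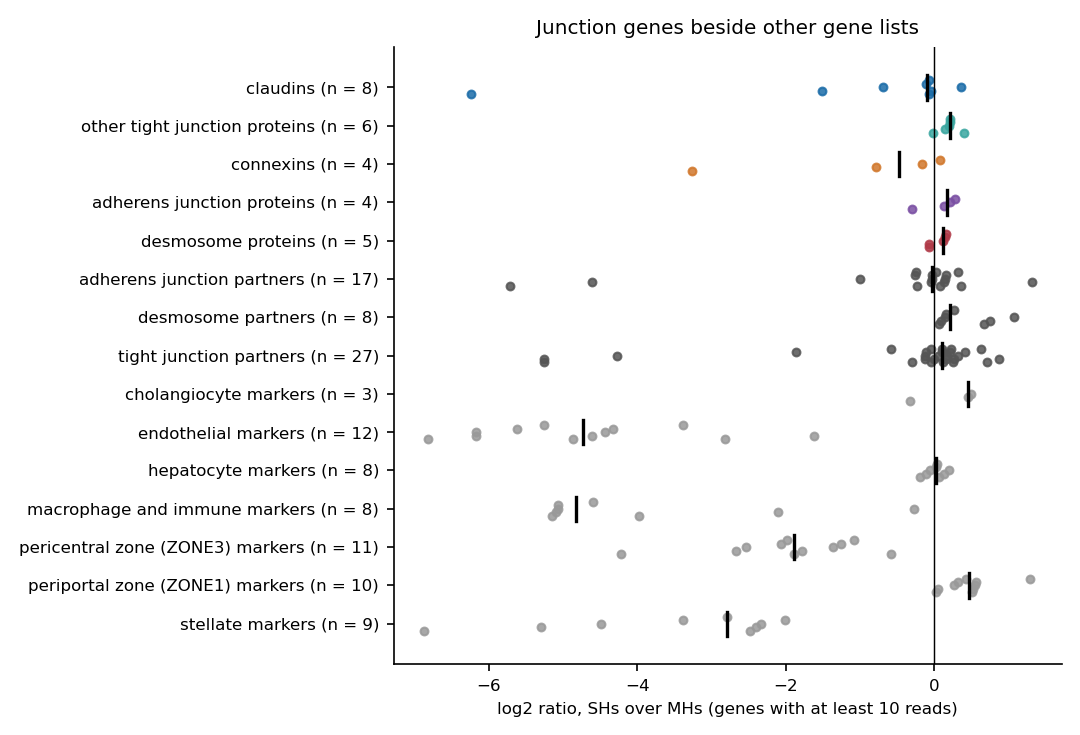
log2 ratio of SHs over MHs for every gene with at least 10 reads in each kind of junction (coloured), in the lists of junction partners (dark grey) and in the lists of cell type and zone markers (light grey), with the median of each list as a black bar and the number of genes in brackets. The junction medians lie near 0 except that of the 4 connexins, the endothelial median lies at -4.74, and Cldn2 lies within the range of the ZONE3 markers.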

How the data were processed

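RNA was measured in 1 library of MHs and 1 of SHs, assigned to groups by their sample titles. The authors deposited raw read counts per gene symbol. The methods describe trimming and alignment to mm10 in CLC Genomics Workbench with a limited number of hits per read, and expression in RPKM. The program and annotation behind the whole counts are not given in the sources used here, so paralogs and overlapping genes are uncertain. From the counts, RPM, log2 ratios (0.5 added reads) and 95% Clopper-Pearson intervals were computed over all 43280 genes in Python 3.11.15 (scipy 1.17.1, numpy 2.4.6, pandas 2.3.3). The reads carried no molecular identifiers, and intervals cover counting error only. Differences between 2 genes' ratios are log2 odds ratios of the 4 counts with Wald intervals. The calculation was tested on simulated counts. Exon lengths came from GENCODE M21 (mm10), which held 54 of the 56 symbols. Its isoforms were merged, so RPKM depends on the isoforms used.

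The genes examined and all lists were chosen with earlier results of these data known. Every junction gene with at least 50 reads was to be described, those with fewer by name from 3 reads in a library, and the 3 lowest and 3 highest partners with at least 100 reads, with Ctnnb1 and Marveld2. Other genes were named after their values were seen, and some genes are not reported here. Where a library held at most 3 reads, the interval is given in place of the bound first planned. The alternatives were TMM (edgeR 4.0.16, R 4.3.3), DESeq2 1.42.0 size factors, totals that omit the 10 most abundant genes, 2 added reads in place of 0.5, other thresholds of reads and fold, thinning of SHs to the depth of MHs, and leaving out Cldn5, Gja1, Gja4, Gja5 and Gjc1.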

Additional observations from a re-analysis of the deposited data

How the results depend on the processing

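No paired analysis was possible because each condition had a single library. Under TMM, DESeq2 size factors and totals that omit the 10 most abundant genes, the median of all genes moved by at most 0.03 on the log2 scale. Under the last, the sum of the connexins had a ratio of -0.0657 and Gjb1 one of -0.13, both by construction of the smaller totals, and Dsc2 gained an interval above 0. Under TMM and DESeq2 size factors no interval changed side. With at least 100 reads, 1 gene was called lower, 3 had an interval under 0 and the median was 0.12. Without the vascular junction genes, 1 was called lower and 3 had an interval under 0. These settings remove Cldn5 and Gja4. The median of the junction genes lay between -0.05 and 0.12 over all settings, so its sign depends on them. At 4-fold, 2 genes were called lower, without Cldn2. With SHs thinned, 8 genes had an interval above 0, against 11 at full depth, and those of Cgn, F11r and Jup included 0. No share over all genes was computed for the thinned reads.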
